A study of Mus musculus with 12 samples.

Results

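A set of 10 macrophage marker genes is described here in mouse liver and liver tumors: 5 genes of the resident liver macrophage, the Kupffer cell (Clec4f, Cd5l, Marco, Vsig4 and Timd4), and 5 genes that macrophages of most tissues express (Csf1r, Cd68, C1qa, C1qb and C1qc). They were chosen by name, as the rows of the deposited data with these symbols, and are 10 of the 19012 gene symbols listed. The libraries were 4 liver tumors of E2F7/8 DKO mice, 4 livers of E2F7/8 DKO mice and 4 livers of Wt mice, called DKO tumor, DKO liver and WT liver below. DKO, double knockout, stands for loss of the genes E2f7 and E2f8 of the E2F transcription factor family, both atypical members that repress transcription, and the tumors carry the same genotype as the DKO livers. Age, sex, strain, the cells in which the genes were deleted and the way the tumors arose are not given in the sources used here. DKO liver and DKO tumor of the same number share an animal code in the names of the deposited data, so the 8 DKO libraries came from 4 animals, numbered 1 to 4, and the codes of the 4 WT livers are of other animals. Polyadenylated RNA of whole tissue was sequenced, and levels are RPKM, the reads of a gene scaled to its exon length in kilobases and to library size in M reads (M, mega), which can be compared between genes.

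Kupffer cells sit inside the liver sinusoids, where they clear bacteria, dying cells and aged red blood cells from the portal blood. They are seeded before birth and renew themselves locally, and in mice Clec4f marks them while monocyte-derived macrophages that enter the liver gain Clec4f slowly and Timd4 last. Survival of macrophages depends on signals through the receptor that Csf1r encodes, and the transcription factor PU.1 and factors of the MAF family control many of their genes.

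Promoters of 3 members are shown, because Clec4f and Vsig4 were at their lowest in the same tumor library, DKO tumor 4, and C1qb was not. Each sequence runs from 250 bases before to 50 bases after the RefSeq start site, 300 bases in all, in build GRCm38.p6, and was taken from a RefSeq table that holds 8 of the 10 members; the promoters of C1qa and Csf1r are not used here. Capitals mark GAGGAA, a core that ETS factors such as PU.1 bind, and TGCTGA, a core of the MAF recognition element, in either orientation (TTCCTC and TCAGCA on the printed strand are the reverse). The Clec4f window is chr6:83656067-83656366, the Vsig4 window chrX:96293389-96293688 and the C1qb window chr4:136886151-136886450, all on the minus strand and printed 5′ to 3′ along the gene.
Clec4f: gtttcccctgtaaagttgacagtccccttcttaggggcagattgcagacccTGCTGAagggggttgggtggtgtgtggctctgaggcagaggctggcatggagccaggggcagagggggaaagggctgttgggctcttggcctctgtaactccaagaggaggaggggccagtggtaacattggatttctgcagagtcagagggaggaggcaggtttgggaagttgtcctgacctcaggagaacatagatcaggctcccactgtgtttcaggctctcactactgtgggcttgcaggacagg
Vsig4: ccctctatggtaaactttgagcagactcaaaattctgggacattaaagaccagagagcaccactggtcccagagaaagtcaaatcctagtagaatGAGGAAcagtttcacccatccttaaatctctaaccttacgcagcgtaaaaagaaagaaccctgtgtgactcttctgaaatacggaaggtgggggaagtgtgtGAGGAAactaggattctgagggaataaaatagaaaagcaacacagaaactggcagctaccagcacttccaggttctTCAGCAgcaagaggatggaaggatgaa
C1qb: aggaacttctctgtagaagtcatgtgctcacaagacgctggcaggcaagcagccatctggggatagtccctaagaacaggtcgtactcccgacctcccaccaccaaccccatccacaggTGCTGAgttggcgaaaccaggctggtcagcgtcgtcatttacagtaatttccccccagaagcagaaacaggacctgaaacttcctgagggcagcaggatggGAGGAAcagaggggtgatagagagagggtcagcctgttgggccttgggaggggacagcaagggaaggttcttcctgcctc
GAGGAA occurred in 6 of the 8 member promoters (C1qb, C1qc, Cd5l, Cd68, Marco and Vsig4) and in 28.3% of 32851 mouse promoters of the same length. TGCTGA occurred in 5 of the 8 (C1qb, Cd5l, Clec4f, Timd4 and Vsig4) and in 19.5% of those promoters. A match describes letters only and says nothing of whether a factor is bound there.

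Library depth was 12.7 to 16.0 M reads in DKO tumors, 9.27 to 12.3 M in DKO livers and 7.98 to 14.2 M in WT livers, so that 1 read in 2 kb of exons was worth 0.0313 to 0.0626 RPKM. E2f7 was at 0.0365 to 0.259 RPKM in DKO tumors, 0.211 to 0.400 in DKO livers and 0.103 to 0.200 in WT livers. E2f8 was at 1.66 to 12.2, 2.80 to 20.8 and 1.66 to 4.30 RPKM in the same order of groups. These values sum all exons and the labels do not name the deleted exons, so they cannot serve as a check of the genotype. Alb, the main hepatocyte transcript, took 11.8 to 22.3% of the reads in DKO tumors, 4.23 to 20.1% in DKO livers and 6.76 to 11.0% in WT livers. The names of the deposited data carry a tag of unstated meaning, L03 for all DKO tumors and WT livers 3 and 4, and L02 for all DKO livers and WT livers 1 and 2. For DKO tumor against DKO liver the tag and the tissue therefore cannot be told apart within the DKO libraries.

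The resident Kupffer cell genes had their highest levels in DKO livers and their lowest in DKO tumors. Clec4f, which encodes a C-type lectin receptor (mm9 chromosome 6, 83594535 to 83606109, minus strand), was at 13.5, 20.4, 81.2 and 2.63 RPKM in DKO tumors 1 to 4. It was at 150.5, 60.3, 121 and 99.3 RPKM in DKO livers 1 to 4 and at 28.5, 79.6, 88.9 and 40.0 RPKM in WT livers 1 to 4. DKO tumors 1, 2 and 4 lay below every liver, and DKO tumor 3 lay inside the range of both liver groups. The means were 29.4 ± 35.3 RPKM in DKO tumors, 108 ± 37.9 in DKO livers and 59.3 ± 29.5 in WT livers (SD, n = 4 each). On the log2(RPKM + 1) scale DKO tumor minus DKO liver was −2.56 (SE 0.74, limma adjusted p = 0.143), and DKO tumor minus WT liver was −1.64 (limma adjusted p = 0.254). Neither difference passed the threshold of 0.05 after Benjamini-Hochberg adjustment over 11351 genes. In whole tissue, fewer Kupffer cells and less of a transcript per cell cannot be told apart.

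Vsig4, also called CRIg, encodes the receptor with which Kupffer cells take up particles coated with complement C3 fragments (mm9 chromosome X, 93442541 to 93488776, minus strand). It was at 14.4, 16.8, 44.5 and 2.18 RPKM in DKO tumors, at 94.2, 38.8, 59.6 and 51.6 RPKM in DKO livers and at 21.0, 47.4, 58.5 and 26.9 RPKM in WT livers. The order of libraries was much like that of Clec4f, with DKO tumors 1, 2 and 4 below every liver and DKO tumor 3 among the livers. The log2 difference was −2.06 for DKO tumor minus DKO liver (limma adjusted p = 0.160) and −1.37 for DKO tumor minus WT liver (limma adjusted p = 0.271). Cd5l encodes AIM, a protein that macrophages secrete into the blood (mm9 chromosome 3, 87161802 to 87174995, plus strand). It was at 21.1, 17.6, 54.1 and 3.04 RPKM in DKO tumors, at 164, 44.9, 91.7 and 73.5 RPKM in DKO livers and at 25.8, 59.5, 77.6 and 26.6 RPKM in WT livers. Here too only DKO tumor 3 reached the levels of the livers. Its log2 difference was −2.29 for DKO tumor minus DKO liver (limma adjusted p = 0.150) and −1.32 for DKO tumor minus WT liver (limma adjusted p = 0.320).

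Timd4 encodes TIM-4, which binds phosphatidylserine on dying cells and marks Kupffer cells of embryonic origin in mice (mm9 chromosome 11, 46624300 to 46657834, plus strand). It was at 2.39, 1.56, 3.96 and 1.22 RPKM in DKO tumors, at 12.3, 5.27, 6.12 and 6.69 RPKM in DKO livers and at 2.53, 7.50, 4.91 and 3.23 RPKM in WT livers. Timd4 was the 1 member whose DKO tumors all lay below all DKO livers, which 4.08% of all genes tested did in that direction. Its log2 difference was −1.39 (SE 0.32, limma adjusted p = 0.0810), the smallest adjusted p among the members. Marco encodes a scavenger receptor that binds bacteria (mm9 chromosome 1, 122371114 to 122401660, minus strand) and was the lowest or second lowest member in every library. It was at 2.15, 1.27, 0.388 and 0.168 RPKM in DKO tumors, at 21.0, 5.37, 0.245 and 1.30 RPKM in DKO livers and at 3.22, 2.05, 8.01 and 1.52 RPKM in WT livers. DKO livers spanned 85.8-fold, the widest range of any member in any group, and the lowest values rest on 5 reads in DKO tumor 4 and 6 reads in DKO liver 3. Marco did not follow the other Kupffer cell genes in animal 3, where both the tumor and the liver were at low levels while Clec4f was at 81.2 and 121 RPKM in them.

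**Figure D1:**
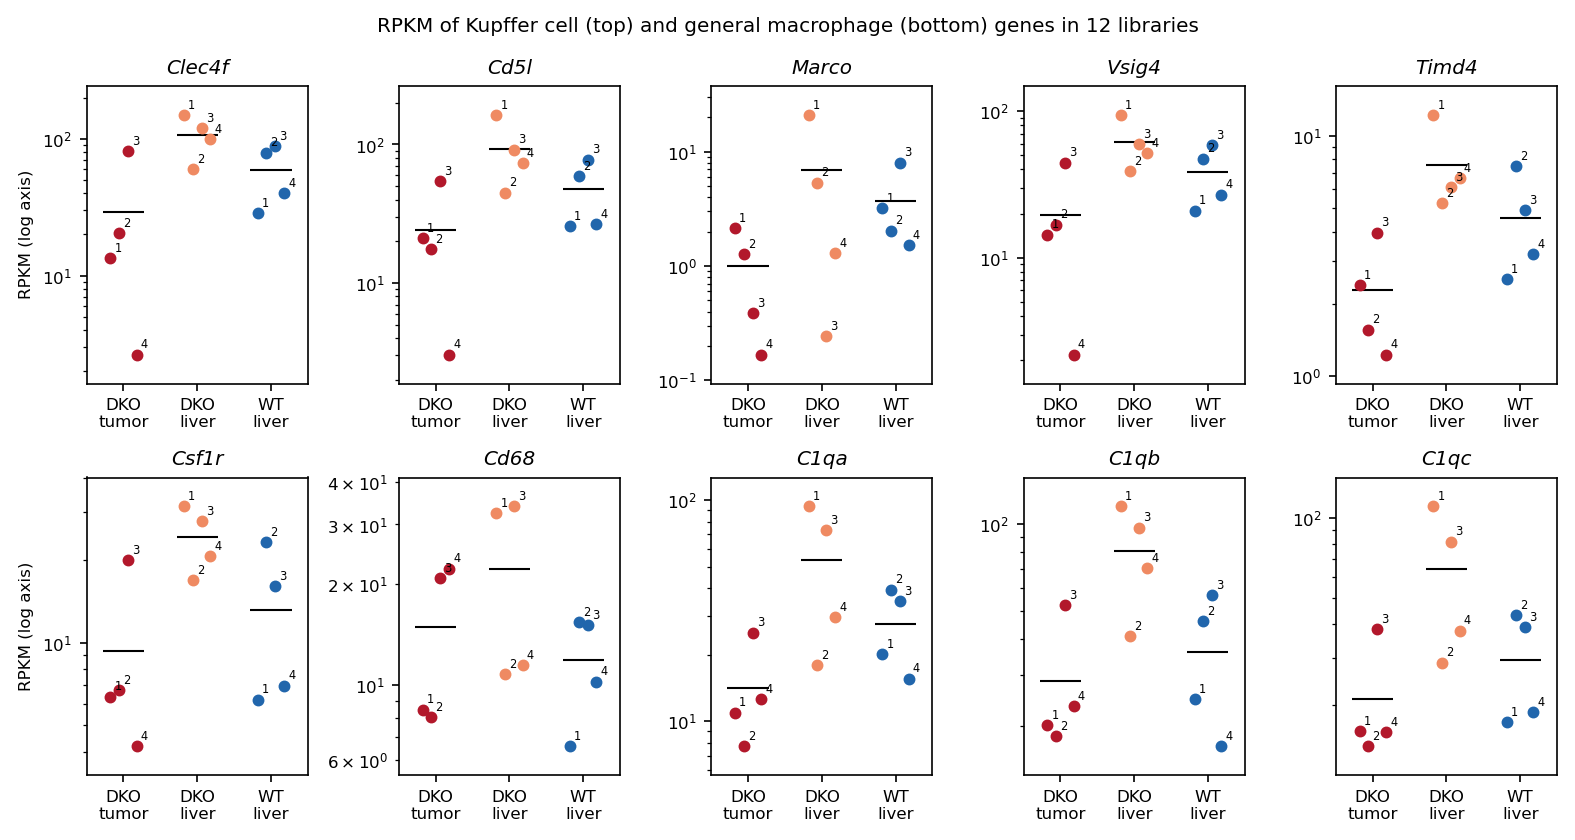
RPKM on a log axis of the 5 Kupffer cell genes (top) and the 5 general macrophage genes (bottom), with 1 point per library numbered by replicate and a line at the mean of 4 libraries. DKO tumor 4 lies lowest for all 5 Kupffer cell genes, at 2.63 RPKM for Clec4f, and DKO tumor 3 is the highest tumor for 4 of them.

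The general macrophage genes were also at their highest mean in DKO livers, but DKO tumors and WT livers lay closer together for all but C1qa. For DKO tumor minus WT liver the log2 difference of C1qa was −0.94 (limma adjusted p = 0.338). That was larger than the difference of the Kupffer cell gene Timd4, at −0.74 (limma adjusted p = 0.230). Csf1r, the receptor for the growth factors CSF1 and IL-34, was at 6.36, 6.70, 20.02 and 4.19 RPKM in DKO tumors, at 31.5, 17.0, 27.8 and 20.7 RPKM in DKO livers and at 6.21, 23.3, 16.1 and 6.98 RPKM in WT livers. DKO tumor 3 was the tumor that overlapped the DKO livers, whereas WT livers 1 and 4 were as low as DKO tumors 1 and 2. Its mean was 9.32 ± 7.22 RPKM in DKO tumors, 24.3 ± 6.59 in DKO livers and 13.2 ± 8.13 in WT livers (SD, n = 4 each). The log2 difference was −1.47 for DKO tumor minus DKO liver (limma adjusted p = 0.160) and 0.98 for DKO liver minus WT liver (limma adjusted p = 0.406). Cd68, a glycoprotein of late endosomes and lysosomes (mm9 chromosome 11, 69477872 to 69479563, minus strand), was at 8.46, 8.04, 20.8 and 22.2 RPKM in DKO tumors. It was at 32.4, 10.8, 33.97 and 11.4 RPKM in DKO livers and at 6.58, 15.4, 15.1 and 10.2 RPKM in WT livers. Cd68 was the only member with a higher mean in DKO tumors (14.9 ± 7.67 RPKM) than in WT livers (11.8 ± 4.23 RPKM), and the groups overlapped (log2 difference 0.24, limma adjusted p = 0.835).

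C1qa, C1qb and C1qc encode the A, B and C chains of C1q, the recognition molecule of the classical complement pathway, which macrophages make. The 3 genes lie side by side on mm9 chromosome 4 on the minus strand, with C1qb from 136436060 to 136442091, C1qc from 136445716 to 136448828 and C1qa from 136451830 to 136454758. C1qb was at 20.1, 18.3, 52.4 and 23.4 RPKM in DKO tumors, at 115, 40.9, 97.4 and 70.4 RPKM in DKO livers and at 24.7, 46.1, 56.6 and 17.0 RPKM in WT livers. DKO livers 1, 3 and 4 exceeded every other library, and DKO tumors overlapped WT livers. Its log2 difference was −1.50 for DKO tumor minus DKO liver (limma adjusted p = 0.143), −0.31 for DKO tumor minus WT liver (limma adjusted p = 0.764) and 1.19 for DKO liver minus WT liver (limma adjusted p = 0.335). C1qa was at 10.9, 7.71, 25.2 and 12.6 RPKM in DKO tumors, at 93.9, 17.96, 73.4 and 29.6 RPKM in DKO livers and at 20.1, 39.4, 34.9 and 15.6 RPKM in WT livers. C1qc was at 15.9, 14.0, 38.4 and 15.8 RPKM in DKO tumors, at 111, 28.7, 81.6 and 37.9 RPKM in DKO livers and at 17.2, 43.2, 38.9 and 18.7 RPKM in WT livers. DKO tumors 1, 2 and 4 lay below all livers for C1qa and C1qc, as they did not for C1qb, Csf1r and Cd68. The chains kept a narrow proportion over the 12 libraries, with C1qa at 0.420 to 0.919 times and C1qc at 0.537 to 1.10 times the RPKM of C1qb, while C1qb itself spanned 17.0 to 115 RPKM.

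By mean RPKM in WT livers, Clec4f was the most abundant member and lay at percentile 91.9 of the genes tested, followed by Cd5l, Vsig4, C1qb, C1qc and C1qa between percentiles 83.8 and 89.9. Csf1r and Cd68 lay at percentiles 71.1 and 68.5, and Timd4 and Marco at 45.0 and 40.2. Neighbours in this order differed in mean by less than their SD, except C1qa at 27.5 ± 11.4 RPKM next to Csf1r at 13.2 ± 8.13, and Cd68 at 11.8 ± 4.23 next to Timd4 at 4.54 ± 2.21 RPKM (SD, n = 4). The 4 values overlapped in both of these pairs. In DKO tumors Clec4f was at percentile 85.5, next to C1qb at 85.1. Marco was at percentile 11.9 in DKO tumors, against 53.4 in DKO livers and 40.2 in WT livers.

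DKO tumors were compared with WT livers to ask how tumor tissue without E2f7 and E2f8 differs from normal liver. All 5 Kupffer cell genes had negative differences, with a median log2 difference of −1.32, and 4 of the 5 general macrophage genes did, with a median of −0.48, where all 11351 genes had −0.02. None of the 10 members was called at a limma adjusted p under 0.05, in a comparison that called 1.9% of genes (216 of 11351). At an unadjusted p under 0.05, Clec4f and Timd4 were lower, 2 of 10, where 10.4% of all genes were. The groups of every member overlapped, where 11.9% of all genes did not overlap in either direction. Without DKO tumor 3, Clec4f was called (log2 difference −2.39, limma adjusted p = 0.0488) and the Kupffer median was −1.87. That fit called 413 of 11351 genes, 238 of them lower, so calls rose over all genes as well. Without both libraries of DKO animal 4 the Kupffer median was −0.65, with Clec4f at −0.89, so that the size of the difference rests in part on DKO tumor 4. Within tag L03, DKO tumors against WT livers 3 and 4 gave −1.42 for the Kupffer genes and −0.40 for the general macrophage genes, with no member called.

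DKO livers were compared with WT livers to ask how the liver of DKO animals differs from WT liver. The DKO livers came from the animals that also gave the tumors. Loss of E2f7 and E2f8 and the bearing of a tumor therefore cannot be told apart here. All 10 members had a higher mean log2 level in DKO livers, with a median log2 difference of 0.69 for the Kupffer cell genes and 0.98 for the general macrophage genes, where all genes had 0.08. No member was called by limma, as no gene in this comparison was (0% of 11351). At an unadjusted p under 0.05, C1qb and C1qc were higher, 2 of 10, where 9.16% of all genes were. The groups of every member overlapped, where 7.59% of all genes did not, and DKO livers 1 and 3 lay above all WT livers for Clec4f, Cd5l, Vsig4, Csf1r, Cd68 and the 3 C1q genes. DKO liver 2 lay inside the WT range for all 10 members. Within tag L02, DKO livers against WT livers 1 and 2 gave medians of 0.85 and 0.89 with no member called. Marco had a difference of 0.12 (limma adjusted p = 0.955) that turned negative under several settings, down to −0.65 without DKO liver 1.

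**Figure D2:**
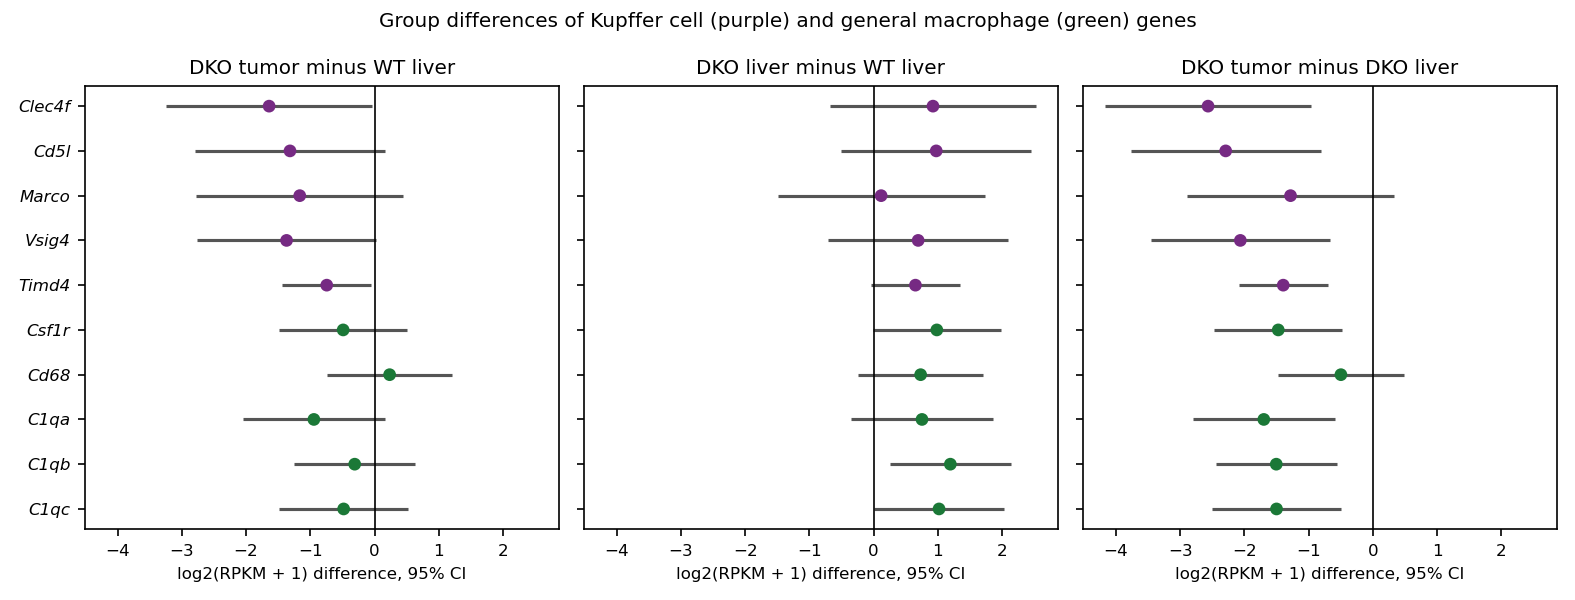
Group differences of the 10 members on the log2(RPKM + 1) scale, with points for the estimate and bars for the 95% confidence interval of limma. For DKO tumor minus DKO liver all 10 estimates are below 0, from −2.56 for Clec4f to −0.50 for Cd68, and for DKO liver minus WT liver all 10 are above 0.

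DKO tumors were compared with DKO livers to ask how tumor differs from the liver of the same animals. All 10 members had negative differences, with a median of −2.06 for the Kupffer cell genes and −1.50 for the general macrophage genes, where all genes had −0.09. No member was called by limma in a comparison that called 0.00881% of genes (1 of 11351, which was higher). At an unadjusted p under 0.05, 8 of 10 members were lower, all but Marco and Cd68, where 12% of all genes were. The result depended on DKO tumor 3: without it 6 members were called lower, among 363 of 11351 genes called, 284 of them lower. Those were Clec4f at −3.31 (limma adjusted p = 0.0215), Timd4 at −1.62 (limma adjusted p = 0.0251), Csf1r, Vsig4, C1qb and Cd5l (limma adjusted p = 0.0310 to 0.0409). With the animal as a random effect, Timd4 was called (limma adjusted p = 0.0425), among 156 genes, 91 of them lower. With the animal as a block no member was called (lowest limma adjusted p = 0.0651, Timd4), among 71 genes called. Without both libraries of animal 4 the Kupffer median was −1.40 and no member was called. This comparison shares its libraries with the other 2, so the high DKO livers enter it as well as the low tumors.

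Set within each animal, the tumor was below the liver for 8 of the 10 members in all 4 animals, where 16.7% of all genes were lower in all 4. In animal 4 Clec4f in the tumor was at 2.65% of its level in the liver, and the median over the 5 Kupffer cell genes was 4.23%. The Kupffer medians were 12.9% in animal 1, 33.9% in animal 2 and 67.2% in animal 3. The general macrophage medians were 17.4, 44.9, 53.8 and 41.7% in animals 1 to 4, a smaller range. Over all genes the median log2 difference within an animal was −0.38, −0.06, −0.16 and 0.21. Both exceptions were single values: Marco in animal 3, where the tumor was at 158% of the liver on 11 and 6 reads, and Cd68 in animal 4, where it was at 194% of the liver on 336 and 107 reads.

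**Figure D3:**
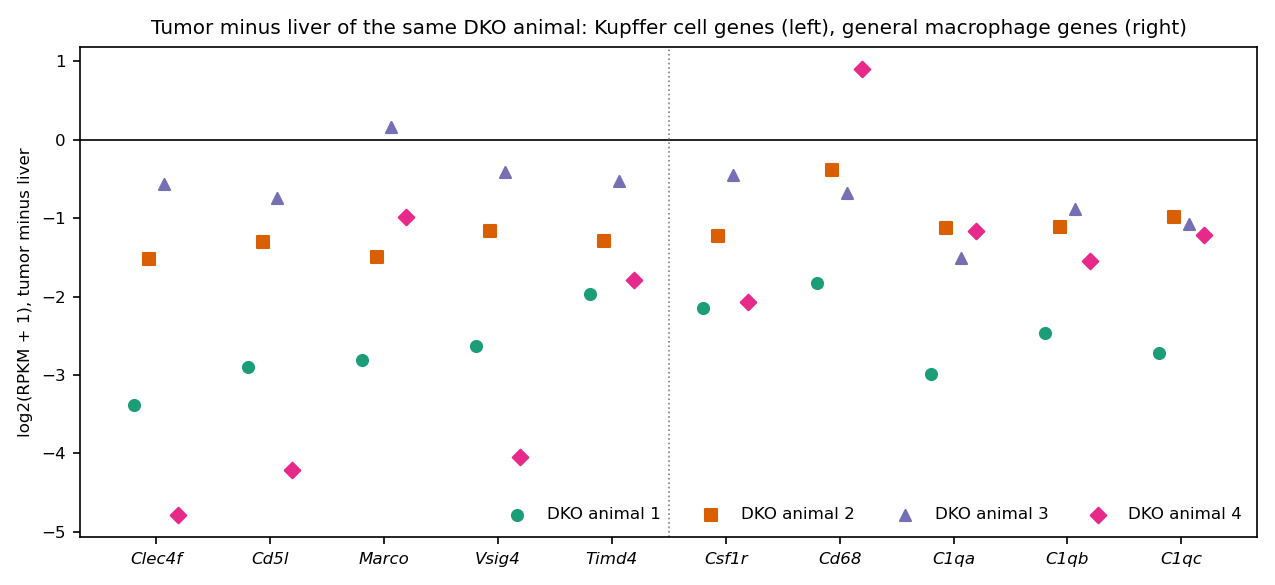
Difference between the DKO tumor and the DKO liver of the same animal on the log2(RPKM + 1) scale, 1 symbol per animal, for the 5 Kupffer cell genes left of the dotted line and the 5 general macrophage genes right of it. Animal 4 is lowest for Clec4f, Cd5l and Vsig4 (−4.79, −4.21 and −4.05) and highest for Cd68 (0.90), and animal 3 lies closest to 0 for most Kupffer cell genes.

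DKO tumor 4 stood apart in the proportion of the 2 kinds of genes. Its 5 Kupffer cell genes summed to 9.25 RPKM and its 5 general macrophage genes to 78.2 RPKM, a ratio of 0.118. In the other 11 libraries the ratio ranged only from 0.866 to 1.47, although the Kupffer sum ranged from 53.5 to 442 RPKM. The sums rest mostly on the abundant genes, and Marco and Timd4 add little. By mean log2(RPKM + 1), Kupffer minus general macrophage genes, DKO tumor 4 was lowest at −2.49. DKO liver 3 followed at −1.33 and DKO tumor 3 at −0.83, with the rest at −0.50 to −0.005. In DKO tumor 4 all 5 general macrophage genes exceeded all 5 Kupffer cell genes, which occurred in no other library. Its Clec4f was at 0.113 times C1qb, against 0.671 to 2.36 times in the other libraries. The general macrophage sum of DKO tumor 4 was the second highest of the tumors, which had 61.8, 54.8, 157 and 78.2 RPKM in tumors 1 to 4. Timd4, at 1.22 RPKM, was less far below the other tumors than Clec4f in this library. No Kupffer cell gene was at 0 in any library.

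**Figure D4:**
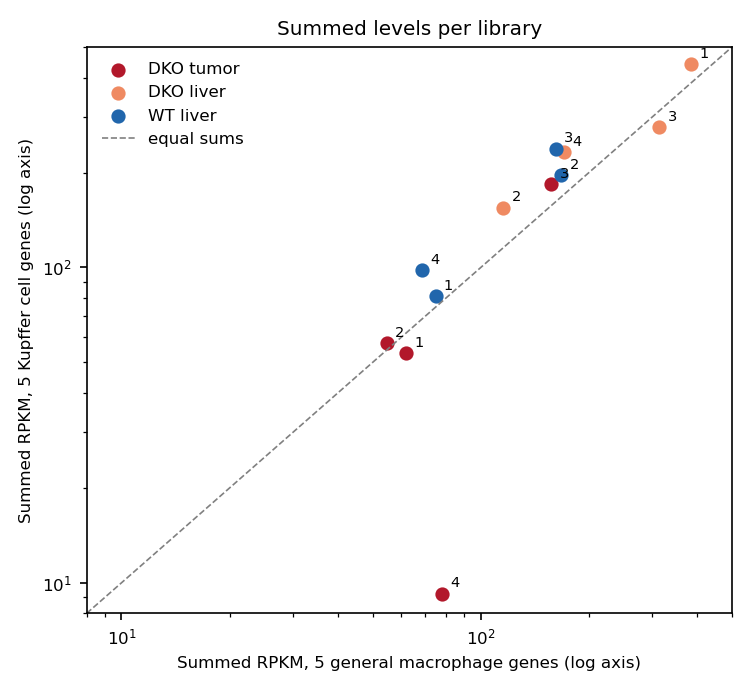
Summed RPKM of the 5 Kupffer cell genes against summed RPKM of the 5 general macrophage genes per library, both on log axes, with a dashed line at equal sums and points numbered by replicate. The other 11 libraries follow the line and DKO tumor 4, at 9.25 and 78.2 RPKM, lies far below it.

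Other genes of the same cells were read from lists of further markers. Of 16 further Kupffer cell and tissue macrophage genes, 13 had negative differences in DKO tumors against WT livers (median −0.55). In DKO tumors against DKO livers 14 of the 16 were negative (median −0.90) and in DKO livers against WT livers 11 were positive (median 0.32), with none called in these 2 comparisons.

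Of 16 further general macrophage genes none was called in any comparison. Their median difference was −0.10 for DKO tumor minus WT liver with 10 of 16 negative, −0.86 for DKO tumor minus DKO liver with 15 of 16 negative, and 0.57 for DKO liver minus WT liver with 16 of 16 positive. The most abundant was Mpeg1, which encodes the pore-forming protein perforin-2, at 77.9 ± 42.1 RPKM in DKO tumors, 81.9 ± 39.2 in DKO livers and 51.3 ± 32.9 in WT livers (SD, n = 4 each). Lyzs, now Lyz2, the lysozyme of myeloid cells, was at 59.96 ± 12.6, 84.3 ± 42.2 and 51.2 ± 22.8 RPKM in the same groups. For both genes the mean was higher in DKO tumors than in WT livers, as the log2 difference was for 6 of the 16, and the groups overlapped.

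The lipid- and scar-associated macrophage genes, which include Trem2, Gpnmb and Spp1, showed the opposite sign in tumors against WT livers. All 8 had positive differences in DKO tumors against WT livers (median 0.89), with 1 called higher and 0 lower where 1.23% of all genes were called higher. Against DKO livers 6 of 8 were positive (median 0.62). The 2 negative genes there were Spp1 (log2 difference −0.66) and Trem2 (−0.0082). The called gene was Cd63, a tetraspanin of late endosomes that many cell types express, at 40.3, 36.1, 27.0 and 26.4 RPKM in DKO tumors, 9.24, 12.6, 20.2 and 5.39 RPKM in DKO livers and 4.93, 7.31, 13.1 and 6.43 RPKM in WT livers. All DKO tumors lay above all livers, where 11.9% of all genes did not overlap in either direction between DKO tumors and WT livers. Against DKO livers the log2 difference of Cd63 was 1.49 and not called (limma adjusted p = 0.0804). It was called there in 3 of 24 other settings (limma adjusted p = 0.0425 to 0.0481). Those were the animal as a random effect, and the fits without DKO tumor 3 or without DKO liver 3. With the animal as a block it was not called (limma adjusted p = 0.0808). Against WT livers Cd63 rose by 1.96 on the log2 scale (limma adjusted p = 0.0215). Within tag L03 the difference was 1.69 and not called (limma adjusted p = 0.0806). Without DKO tumor 1 or 2, or WT liver 1 or 4, Cd63 was not called either, with limma adjusted p from 0.0575 to 0.0866. The tag as a covariate and the fit without the filter ended the call too (limma adjusted p = 0.198 and 0.105). Of 9 monocyte and recruited macrophage genes tested, none was called, and their median was 0.08 for DKO tumor minus WT liver and −0.20 for DKO tumor minus DKO liver.

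Genes around the macrophage were read in the same way, and none of them was called in the main fit, which took the 12 libraries as independent. Among growth factors, chemokines and receptors, Cxcl12, a chemokine of stromal and endothelial cells, was at 20.04, 20.6, 48.3 and 19.2 RPKM in DKO tumors, 75.5, 58.1, 62.9 and 51.5 RPKM in DKO livers and 42.7, 72.4, 54.6 and 51.4 RPKM in WT livers. Its log2 difference was −1.27 for DKO tumor minus DKO liver (limma adjusted p = 0.0749) and −1.09 for DKO tumor minus WT liver (limma adjusted p = 0.0563). DKO tumor 3 was the 1 tumor within the range of the WT livers, and without it Cxcl12 was called lower in both comparisons (limma adjusted p = 0.00244 against DKO livers and 0.00414 against WT livers). Against DKO livers, which came from the same animals, it was also called with the animal as a random effect (limma adjusted p = 0.0414) and not with the animal as a block (limma adjusted p = 0.0881). Against WT livers it was called with median-of-ratios scaling, with the shortest transcript and with albumin reads left out of the totals (limma adjusted p = 0.0286 to 0.0492). The list as a whole had medians of −0.54 and −0.15, with 8 and 5 of 9 genes negative. The 6 complement partners of C1q, made mostly by hepatocytes, had medians of −0.37 for DKO tumor minus DKO liver and −0.34 for DKO tumor minus WT liver. The 8 antigen presentation genes were all negative in both comparisons, with medians of −0.54 and −0.19.

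Markers of other cell types had differences of the same sign as the members in some comparisons and not in others, and none was called. In DKO tumors against DKO livers, 8 of 8 lymphocyte genes (median −0.54), 4 of 4 neutrophil genes (−1.05), 7 of 7 stellate cell genes (−0.63) and 8 of 9 sinusoidal and other endothelial genes (−0.39) had negative log2 differences. Hepatocyte genes had a median of −0.02 and red blood cell genes −0.02, and cholangiocyte genes had 0.51, with 2 of 3 positive. The endothelial genes summed to 44.2 to 112 RPKM in DKO tumors, 91.2 to 131 in DKO livers and 62.3 to 96.6 in WT livers. Clec4g, a lectin of sinusoidal endothelial cells, was at 9.84, 24.9, 31.4 and 1.90 RPKM in DKO tumors 1 to 4, lowest in DKO tumor 4 as the Kupffer cell genes were. It was at 35.3 to 59.1 RPKM in DKO livers and 25.9 to 35.7 RPKM in WT livers. Clec4g did not stand for its list against WT livers. There its log2 difference was −1.29 (limma adjusted p = 0.251), and 5 of the 9 endothelial genes were positive, up to 0.97. In DKO livers against WT livers the same lists were positive in 8 of 8, 4 of 4, 7 of 7 and 8 of 9 genes. In DKO tumors against WT livers, where the Kupffer median was −1.32, the lists split: 8 of 8 lymphocyte genes (median −0.28) and 5 of 7 stellate cell genes (−0.34) were negative, whereas 4 of 4 neutrophil genes (0.10) and 5 of 9 endothelial genes (0.13) were positive. The part of other cell types in the differences of the members was not tested.

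**Figure D5:**
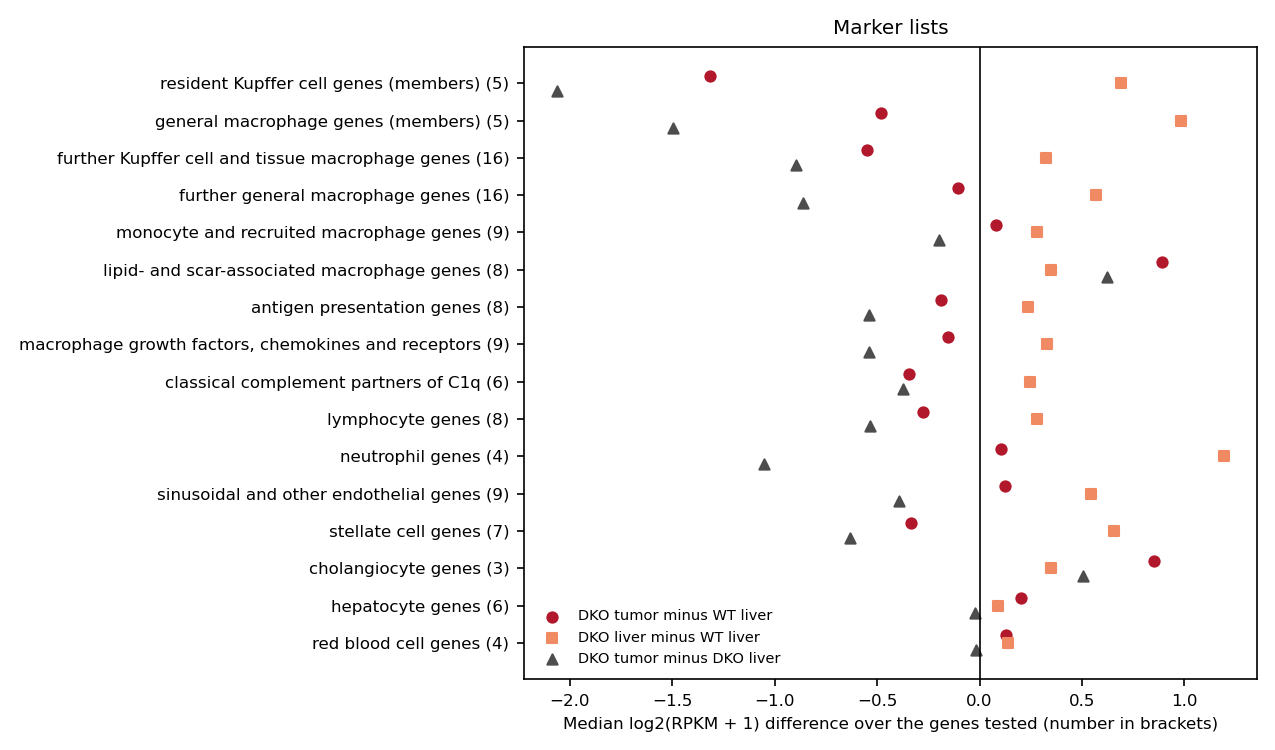
Median log2(RPKM + 1) difference of each marker list in the 3 comparisons, with the number of genes tested in brackets. The Kupffer cell members lie farthest to the left for DKO tumor minus DKO liver (−2.06), and the lipid- and scar-associated macrophage genes lie to the right in all 3 comparisons.

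The genes outside the members whose pattern was most like theirs were found by Pearson's r of log2(RPKM + 1) with the mean profile of each set over the 12 libraries, among 11341 genes. The libraries share animals and groups, so r is a description. Genes picked by r share the members' pattern over the groups through the choice. Their differences and calls below are therefore no separate support for that pattern. For the Kupffer cell genes they were Fcna (r = 0.96), Folr2 (0.95), Fabp7 (0.95), Ctsc (0.95) and Clec1b (0.94). Fcna, a ficolin made by Kupffer cells in mice, was at 5.24 ± 3.46 RPKM in DKO tumors, 20.8 ± 7.26 in DKO livers and 13.5 ± 3.75 in WT livers (SD, n = 4 each). Its log2 difference was −1.98 for DKO tumor minus DKO liver (limma adjusted p = 0.0793). Folr2, a folate receptor of tissue macrophages, was at 2.53 ± 2.02, 13.7 ± 7.93 and 7.96 ± 2.58 RPKM in the same groups, with a log2 difference of −2.07 for DKO tumor minus DKO liver (limma adjusted p = 0.0749). Both were on the list of further Kupffer cell genes, and both were called in that comparison without DKO tumor 3 (limma adjusted p = 0.0215 and 0.0101). Both were also called with the animal as a random effect (limma adjusted p = 0.0425 and 0.0414) and not with the animal as a block (limma adjusted p = 0.0896 and 0.108). For the general macrophage genes they were Vav1 (r = 0.99), Lpcat2 (0.99), Sfpi1 (0.99), Sdc3 (0.98) and Sema6d (0.98). Sfpi1, now Spi1, encodes PU.1 and was at 1.98 ± 1.33 RPKM in DKO tumors, 5.82 ± 3.25 in DKO livers and 2.56 ± 1.41 in WT livers.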

How the data were processed

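Per the labels' protocols, messenger RNA was purified with poly(A) beads and an mRNA enrichment kit, and libraries were made for a SOLiD sequencer. The authors deposited RPKM per RefSeq transcript; the submitters' processing notes name BWA and mm9, and the counting tool, strand setting and treatment of multiply mapped reads are not given in the sources used here. Whether coordinates count from 0 or 1 is not stated. Reads per gene and depth were recovered from the smallest RPKM step of each library, and 99.987 to 99.994% of values per library came out whole (tolerance 0.05 read); they describe counting error only. Replicates differed by more than sampling noise (chi-square per gene at least 19.7).

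The longest of the listed transcripts was kept per symbol; each member has 1. The filter asked for 0.5 RPKM or more in 4 or more libraries and kept 11351 genes, all 10 members among them. On the log2(RPKM + 1) scale these were fitted by limma 3.58.1, run in R 4.3.3 (trend, robust, 1 mean per group, 12 libraries), two-sided, with Benjamini-Hochberg adjustment at 0.05; called means an adjusted p under that. The offset of 1 understates changes of low genes. RPKM are not counts, so voom on recovered reads was only an alternative. On simulated data for DKO tumor against WT liver (11351 genes, 3 runs) 56 to 67% of 2-fold and 91 to 96% of 4-fold changes were recovered. The changes were planted in genes picked at random, with noise independent between genes. In that comparison the SE of the members ran from 0.32 for Timd4 to 0.74 for Marco. The recovered shares therefore do not hold for a given member, and a member not called may still have changed.

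The members and lists were chosen with earlier results of these data known, so lists are given as counts and medians without a test. Of 131 list entries 130 matched. Named genes were all members, the genes called in each list or else its 2 most abundant, and the 5 nearest in pattern; the naming of Clec4g, Cxcl12, Fcna and Folr2 follows that rule, and only some of the genes it allows are named; 1 called gene of the lists is not reported here. Animal codes pair DKO tumor and DKO liver of the same number. Their deviations from the group means correlated at 0.00285 to 0.367, and 2 of the 4 tumors correlated best with their own liver. DKO liver 4 and WT liver 3, of different animals, reached 0.357, so the pairing rests on the codes. The animal was an alternative block and random effect (statmod 1.5.0). Nothing says that libraries of a group came from separate preparations beyond these codes, so p-values measure the spread between these libraries. Alternatives also covered scaling, offset, filters, tags, transcripts, albumin reads and leaving out libraries. Python 3.11.15, numpy 2.4.6, pandas 2.3.3 and matplotlib 3.10.9 were used.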

Additional observations from a re-analysis of the deposited data

Results flagged for a closer look

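The gap of a library in RPKM was set against the range of its group, where a high value stands out more than on the log2 scale. Chance alone gives about 1 in 20 outlying groups if values are normally distributed, which RPKM need not be. In 3 of 30 groups of 4 libraries, 1 library lay far from the other 3. All 3 were DKO tumor 3 among the DKO tumors, where it was the highest: Csf1r at 20.02 RPKM against 4.19 to 6.70 in the other tumors, C1qb at 52.4 RPKM against 18.3 to 23.4, and C1qc at 38.4 RPKM against 14.0 to 15.9. The members share cells and this library, so these are not separate observations. For C1qa the same tumor was at 25.2 RPKM, against 7.71 to 12.6 in the others. DKO tumor 3 also had the highest Clec4f, Cd5l, Vsig4 and Timd4 of the tumors, and Dcn, a stellate cell and fibroblast gene, at 169.5 RPKM against 32.9 to 46.7 RPKM in the other tumors. The part of other cell types in these values was not tested.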

How the results depend on the processing

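Across 26 other settings the 10 members gave 740 values. As no member was called in the main fit, no value could newly fall short of the threshold. Of the 740 values, 726 kept their direction and their side of the threshold, 8 newly passed it and 6 changed sign. The 6 are Marco in DKO liver against WT liver: main 0.12, −0.18 with an offset of 0.1, −0.22 with voom, and −0.65 to 0.73 over fits that each left out 1 library. With 1 library left out, 0 to 1 members were called in DKO tumor against WT liver, 0 to 6 in DKO tumor against DKO liver and 0 in DKO liver against WT liver. The higher counts are those without DKO tumor 3. With the animal as a random effect (within-animal correlation 0.149), 1 member was called in DKO tumor against DKO liver. With the replicate block, 0 members were called in each comparison; for WT livers the numbers mark other animals and pair nothing. Left-out libraries moved the Kupffer median over −1.87 to −0.65 for DKO tumor minus WT liver, −2.62 to −1.35 for DKO tumor minus DKO liver and 0.46 to 0.93 for DKO liver minus WT liver.

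Counts over all genes moved more. DKO tumor against WT liver gave 216 in the main setting, 606 with median-of-ratios scaling, 452 with albumin reads left out of the totals, 128 with the block, 25 within tag L03, 3 with the tag as a covariate, 1 without the filter, and 16 to 413 with 1 library left out. DKO tumor against DKO liver gave 1, against 55 with its 8 libraries alone, 71 with the block, 156 with the random effect, 2 without the filter, 0 with the stricter filter or the tag and 1 to 363 with 1 library left out. DKO liver against WT liver gave 0 in the main setting and 0 to 3 elsewhere. Median-of-ratios scaling moved the median of all genes for DKO tumor minus DKO liver to 0.02, against −0.09, and called no member. The causes were not tested. Tag, animals and 4 libraries per group limit what can be told apart, and Marco is limited by few reads.

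The alternatives added after seeing the data were the fits within a tag, without albumin reads, without animal 4 and with the random effect.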

Other observations

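Within the list of lymphocyte genes, Nkg7, a granule protein of cytotoxic lymphocytes, was at 0.308, 0.581, 0.946 and 0.327 RPKM in DKO tumors, 2.44, 1.35, 2.89 and 1.86 RPKM in DKO livers and 1.23, 1.63, 1.03 and 0.518 RPKM in WT livers. All DKO tumors lay below all DKO livers, where 4.08% of all genes did, but the gene was not called in that comparison (log2 difference −1.02, limma adjusted p = 0.0749) nor in DKO tumor against WT liver (−0.44, limma adjusted p = 0.269). The neutrophil genes S100a8 and S100a9, which encode calprotectin, were at 14.8 and 9.89 RPKM in DKO tumor 3, the highest of the tumors. In the liver of the same animal they were at 46.0 and 57.2 RPKM, the highest of all libraries, and in WT livers they were at 1.92 to 6.77 and 3.10 to 5.12 RPKM.

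Both libraries of animal 3 thus combined low Marco with high S100a8 and S100a9. That joint pattern was noticed after the values were seen and rests on 1 animal.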
